A study of Mus musculus with 4 samples.

Results

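Excitatory nuclei of the basolateral amygdala (BLA) that carried at least 1 unique molecular identifier (UMI, a count of 1 captured RNA molecule) of Wfs1 were described here. They were 470 of the 5173 nuclei that passed the excitatory rule, out of 27313 barcodes in all. The rule kept barcodes with at least 500 genes, under 5% mitochondrial UMIs and 4000 to 25000 UMIs. It then asked for at least 1 UMI of Slc17a7, which encodes the vesicular glutamate transporter of most forebrain excitatory neurons, at most 1 UMI of Gad1 and Gad2 together and at most 3 of Foxp2. The members were set against nuclei of the same rule with no Wfs1 UMI, 3 per member, taken from the same library at the nearest total UMI count.

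The samples were single-nucleus RNA libraries (10x Genomics 3' chemistry v3) of the BLA of C57BL/6J mice, either wild type (WT) or DISC1-N, a genotype that the labels also spell DISC-N. Each genotype had 2 libraries, replicate 1 and replicate 2, and bilateral tissue of 5 mice was pooled per group. Both genotypes were given tamoxifen into the peritoneum 6 h before the tissue was taken. The labels do not say which promoter or cell type drives the DISC1-N allele, what tamoxifen acts on, or the age and sex of the mice. They also do not say whether the replicates of a genotype came from separate mice, and p-values then cover only the spread between these libraries, which may be technical. Values of the 4 libraries are given in the order WT replicate 1, DISC1-N replicate 1, WT replicate 2 and DISC1-N replicate 2.

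Wfs1 encodes wolframin, a membrane protein of the endoplasmic reticulum (ER) that takes part in calcium handling and in the ER stress response. Its loss causes Wolfram syndrome. In the mouse forebrain the gene marks subsets of excitatory neurons. The excitatory neurons of the BLA are glutamatergic projection neurons of several molecular types, told apart by genes such as Rspo2, Etv1, Rorb, Otof and Cdh13, and they carry information on threat and reward to the striatum, the cortex and the central amygdala.

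The 4 libraries held 37840301 to 48439711 UMIs. The members numbered 159 in WT replicate 1, 119 in DISC1-N replicate 1, 83 in WT replicate 2 and 109 in DISC1-N replicate 2. Of the 470, 418 carried 1 Wfs1 UMI, 44 carried 2 and 8 carried 3 or more. Their median depth was 9330, 10457, 8747 and 9786 UMIs in the same order of libraries, and that of the matched nuclei was 9331, 10452, 8750 and 9788. Slc17a7 stood at 1 UMI in 141 members. At the edges of the rule, 184 nuclei with a Wfs1 UMI had no Slc17a7 UMI and 35 had 2 Gad1 and Gad2 UMIs, against 85 members with 1. No barcode was shared between the members of any pair of libraries, and 5 to 21 barcodes were shared between pairs of whole libraries.

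A single Wfs1 UMI did not set these nuclei apart from glia by its frequency. Within the same depth window, 9.09% of the excitatory nuclei held a Wfs1 UMI (95% exact binomial interval 8.32% to 9.90%, median 8996 UMIs). The share was 9.03% of 155 nuclei chosen by oligodendrocyte genes (5.03% to 14.7%, median 5743 UMIs) and 9.32% of 161 chosen by astrocyte genes (5.31% to 14.9%, median 5819 UMIs). The intervals cover counting error only. The members are therefore described by the rule, not as neurons that express Wfs1. The share also differed among the clusters of excitatory nuclei described below. It was 5.83% of 755 nuclei in cluster 2 (4.27% to 7.74%, median 9603 UMIs) and 13.6% of 456 nuclei in cluster 5 (10.6% to 17.1%, median 7885 UMIs), so the shallower cluster had the higher share.

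The 7 excitatory markers other than Slc17a7 summed to 811 to 1071 CPM (UMIs scaled to a common total per sum of nuclei) in the members of the 4 libraries and to 808 to 1075 CPM in the matched nuclei, so both sets carried the markers of the excitatory label at like levels. Markers of other cells were present as well. Astrocyte markers (10 genes) summed to 282 to 518 CPM in the members and 268 to 553 CPM in the matched nuclei, oligodendrocyte markers (8 genes) to 93.6 to 288 and 161 to 313 CPM, and microglial markers (8 genes) to 51.7 to 96.3 and 50.6 to 83.3 CPM. Inhibitory markers (10 genes without Gad1 and Gad2) summed to 120.5 to 367 and 164 to 312 CPM. None of these lists was higher or lower in the members of all 4 libraries. Striatal and intercalated markers (11 genes) were higher in the members of 4 of 4 libraries, at 229 to 335 against 209 to 262 CPM, and the part of this in the results below was not tested beyond the alternatives given there. Isl1 of that list and Cldn5 of the endothelial list had no UMI in the members, and every other marker had at least 1.

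The excitatory nuclei fell into 15 clusters, found without the 5 rule genes. In 4 of them (clusters 6, 8, 9 and 10) summed markers of astrocytes, oligodendrocytes, inhibitory neurons and microglia, in that order, exceeded 4 times the median over clusters, and most of the single markers did so too (10 of 10, 7 of 8, 9 of 10 and 7 of 8). Cluster 6 also held precursor and vascular markers. Summed inhibitory markers exceeded the same limit in clusters 11, 13 and 14, where 1 marker of 10 did so, and these clusters were kept. These mixed-marker clusters held 25.5% of the members and 21.3% of the matched nuclei. Among members the share was 31.4% and 31.1% in the WT and DISC1-N replicate 1 libraries and 19.3% and 15.6% in the replicate 2 libraries. Calls were recomputed without these clusters, an alternative chosen after the data were seen, and the named genes that lost or gained a call there are given with their values below. The nuclei of highest Scrublet score, a measure of likeness to simulated doublets, made up 9.43%, 5.04%, 8.43% and 11.01% of the members against 5.03%, 3.64%, 10.8% and 6.42% of the matched nuclei. The members were higher in 3 libraries and lower in WT replicate 2, and this share was not tested.

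Members lay more often than matched nuclei in 2 clusters and less often in 1. Cluster 4, led by Nnat (neuronatin, an ER membrane protein), Slc24a2 and Arhgap6, held 13.8%, 15.1%, 13.3% and 17.4% of the members and 7.13%, 8.96%, 7.63% and 9.48% of their matched nuclei. All 4 member values lay above all 4 matched values. The log2 fold change in nuclei counts was 0.85 ± 0.12 (SE; edgeR's quasi-likelihood test with Benjamini-Hochberg adjustment, adjusted p = 0.00214).

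Cluster 5, led by Cdh13 (T-cadherin, an adhesion protein), Rfx3 and Otof, held 12.6%, 8.40%, 18.1% and 15.6% of members against 7.76%, 5.32%, 8.84% and 9.17% of matched nuclei. The members were higher within each library, with the range overlapping between libraries (log2 fold change 0.78 ± 0.13, edgeR adjusted p = 0.00693). Cluster 2, led by Col5a2, Sema3e and Rspo2 (the last an activator of Wnt signalling that marks a large group of BLA principal neurons), held 10.7%, 8.40%, 7.23% and 10.1% of members against 13.4%, 15.1%, 19.7% and 21.7% of matched nuclei. Every member value lay below every matched value (log2 fold change -0.85 ± 0.19, edgeR adjusted p = 0.0127). Without WT replicate 2, cluster 4 alone was called, and clusters 2 and 5 had adjusted p-values of 0.0627 and 0.0604. Clusters 1 and 9 missed the threshold with estimates of -0.46 ± 0.16 and 0.77 ± 0.20 (adjusted p = 0.0815 for both).

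**Figure D1:**
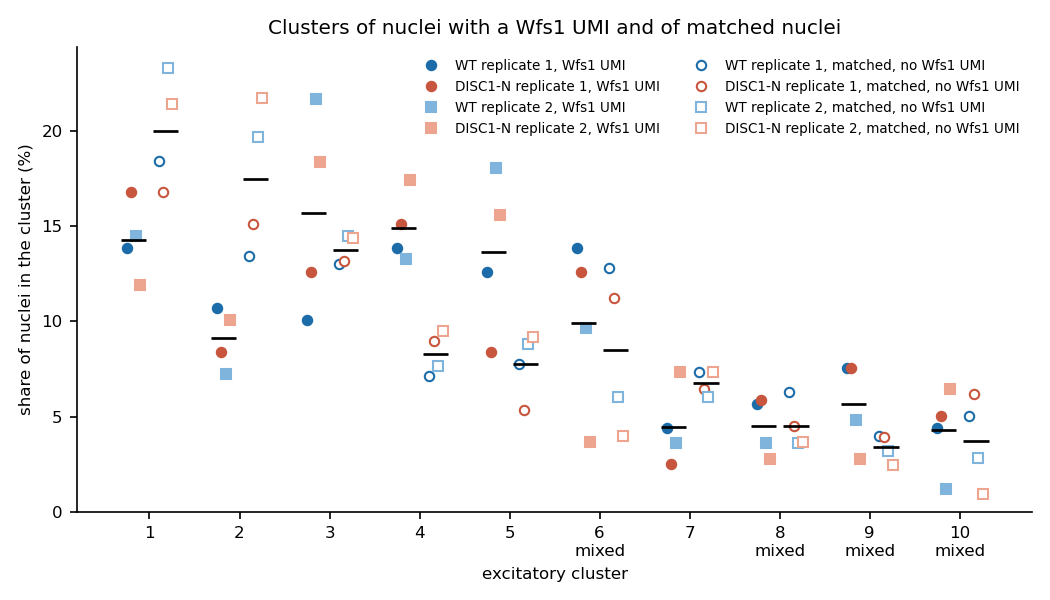
Share of nuclei (%) in each excitatory cluster of at least 100 nuclei, for nuclei with a Wfs1 UMI (filled) and UMI-matched nuclei without (open), 1 point per library and black lines for the means of 4 libraries. Filled points lie above open ones in clusters 4 and 5 within every library and below them in cluster 2; clusters labelled mixed carry markers of another cell type.

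Across genes, 262 of the 11792 tested differed between members and matched nuclei (2.22% called), 139 higher and 123 lower. The test was edgeR's quasi-likelihood test on UMIs summed per library, with the library as a term, at a Benjamini-Hochberg adjusted p under 0.05. The folds were modest: among the 25 genes named by rule the log2 fold change ran from -0.80 for Kcnh5 to 0.90 for Inhba. Being higher in the members of 4 of 4 libraries is common by itself, since it held for 8.6% of all genes tested, and being lower in 4 of 4 for 9.67%. The share of all genes whose member and matched values did not overlap was not computed. A lack of overlap below is therefore only a description of genes already called. With WT replicate 1, WT replicate 2 or DISC1-N replicate 2 left out, the count of calls was 167, 169 or 139. It was 0 in the fit that did not compare within libraries, which had 432 genes at an unadjusted p under 0.05 against 1258 with the library term. The DESeq2 and limma-voom tests called 108 and 275.

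The clusters and the genes are the same nuclei seen in 2 ways: leading genes of cluster 4 (Nnat, Arhgap6, Plce1) and cluster 5 (Otof, Cdh13) were among the risen genes. A comparison with nuclei matched on both UMIs and cluster removes the make-up of these 15 clusters, but not finer make-up inside them. In a finer clustering, parts of cluster 1 each held a mean 3.89% of members, against 7.16% and 6.93% of matched nuclei. Another part held a mean 4.43% against 3.08%, with the members higher in 2 of 4 libraries. Its values were 1.9%, 10.1%, 4.8% and 0.9% of members against 3.6%, 5.3%, 1.6% and 1.8% of matched nuclei. These shares were not tested. The cluster-matched comparison called 77 genes (0.652%), 49 higher (0.415%) and 28 lower (0.237%), of which 66 were among the 262. Of the 261 called genes it could test, 259 kept their sign, and their log2 fold changes were a median 0.62 times those with UMI matching alone. Without the mixed-marker clusters 199 genes were called (1.87%), 0.985% of the genes tested higher and 0.882% lower, 168 of them shared with the 262, and with cluster matching added 46 (0.432%; 0.31% higher and 0.122% lower), 42 of them shared. In the members with 2 or more Wfs1 UMIs, set against their own matched nuclei, all 212 of the called genes that could be tested kept their sign, with log2 fold changes a median 2.38 times those of all members. These nuclei are a subset of the members and give no independent evidence.

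**Figure D2:**
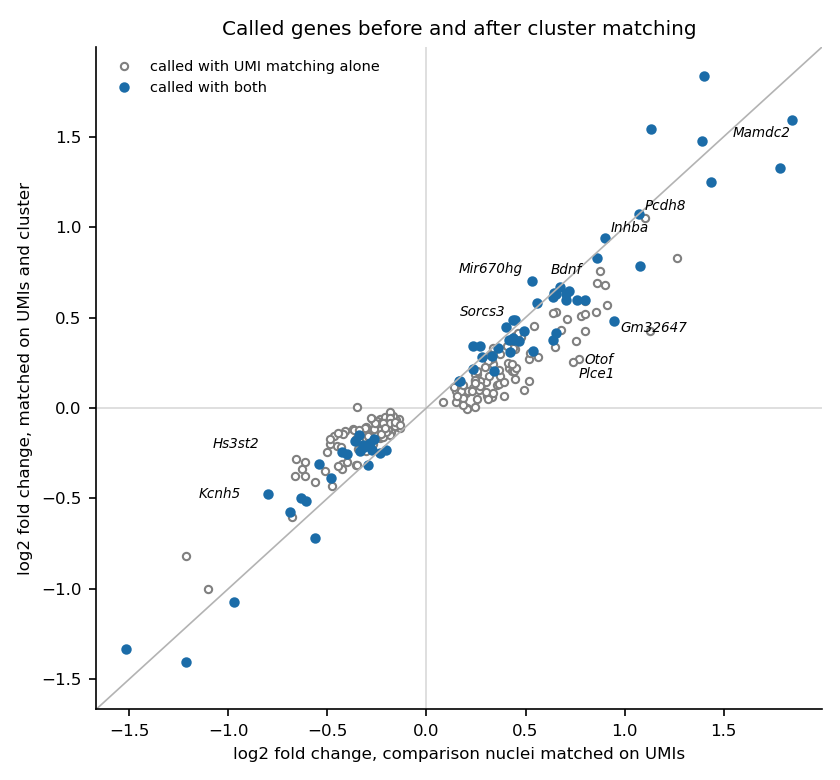
Log2 fold change of each gene called with UMI matching (x axis) against its value when comparison nuclei were also matched on cluster (y axis); filled points were called by both, the grey line marks equal values. The median ratio of the values is 0.62, while Inhba, Bdnf, Pcdh8, Sorcs3 and Mir670hg lie close to the line or beyond it.

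Inhba and Bdnf, genes of secreted signals, were among the rises also called with cluster matching. Inhba, which encodes the activin A subunit and is induced by synaptic activity, stood at 31.9, 27.1, 32.0 and 20.4 CPM in the members and at 11.04, 16.7, 28.7 and 8.81 CPM in the matched nuclei. The members were higher in 4 of 4 libraries, least so in WT replicate 2. In the members 5 nuclei held 31.2% of the Inhba UMIs. In WT replicate 2, 1 nucleus held 10 of the members' 26 UMIs and 1 held 22 of the matched nuclei's 70. Without the nucleus of most UMIs in each kind the values of that library were level, at 20.0 and 19.8 CPM. The log2 fold change was 0.90 ± 0.19 (edgeR adjusted p = 0.00332) and 0.94 with cluster matching (adjusted p = 0.000465). The gene lies at chromosome 13, 16011851 to 16031621 (mm10), and an antisense gene model overlaps it.

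Bdnf, the gene of brain-derived neurotrophic factor, had 71.6, 42.05, 81.2 and 63.0 CPM in the members and 35.1, 41.9, 50.1 and 34.7 CPM in the matched nuclei. In DISC1-N replicate 1 the values were level, and in the other 3 libraries the members were higher. In WT replicate 2, 1 nucleus held 22 of the members' 66 Bdnf UMIs. Without the nucleus of most UMIs in each kind, the members had 60.5, 37.3, 54.9 and 56.7 CPM. The matched nuclei then had 33.1, 39.2, 45.5 and 31.6 CPM, so that the members of DISC1-N replicate 1 were lower. Its log2 fold change of 0.67 ± 0.13 (edgeR adjusted p = 0.00119) was 0.67 with cluster matching (adjusted p = 0.000127). Bdnf (chromosome 2, 109674700 to 109727007, mm10) was the only call among the 21 immediate early and activity-induced genes tested, beside 2.22% of all genes called. The list's median log2 fold change was 0.20 against 0.0052 for all genes tested, and 12 of its 21 estimates were above 0. The early-response genes Arc at -0.05, Npas4 at 0.20 and Egr1 at -0.56 did not pass the test, nor did Homer1 at -0.21 and Vgf at 0.31.

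Among 12 neuropeptide precursors tested, the granins Chgb and Scg2, proteins of dense-core vesicles, rose, beside 1.18% of all genes called higher. Chgb had 227.5, 179, 138 and 113 CPM in the members and 179.6, 143, 87.1 and 84.9 CPM in their matched nuclei. The members were higher within each library, while the replicate 1 libraries were higher than the replicate 2 libraries in both kinds of nuclei (log2 fold change 0.40 ± 0.07, edgeR adjusted p = 0.000566; with cluster matching 0.45, adjusted p = 2.8e-05). Scg2 had an estimate of 0.66 ± 0.14 (adjusted p = 0.00546), which missed the threshold with cluster matching (adjusted p = 0.0723). In replicate 2, 1 nucleus held 9 of the members' 20 Scg2 UMIs in WT and 1 held 6 of 12 in DISC1-N. Without the nucleus of most UMIs in each kind, Scg2 had 44.7 against 30.6 CPM in WT and 33.0 against 22.9 CPM in DISC1-N of replicate 1. In replicate 2 the members were then lower, at 13.7 against 15.3 CPM in WT and 5.18 against 5.70 CPM in DISC1-N. Penk, an opioid precursor and one of the striatal markers, stood at 0.67 ± 0.20 (adjusted p = 0.0716), and 5 nuclei held 41.2% of its UMIs in the members. With cluster matching Penk was called (0.83, adjusted p = 0.0264). It was not among the calls without the mixed-marker clusters, with or without cluster matching. In nuclei with no Gad1, Gad2 or Foxp2 UMI its estimate was -0.017 ± 0.31 (edgeR adjusted p = 0.995). The list's median was 0.17.

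Elmo1, which helps to activate the GTPase Rac, rose unevenly over the libraries. Its member levels were 304, 207, 228 and 361 CPM, and its matched levels 169.8, 202, 182 and 126 CPM. Members were higher in all 4, by little in DISC1-N replicate 1. Elmo1 is also expressed by microglia, and cluster 10, with microglial markers, held 6.42% of the members but 0.917% of the matched nuclei of DISC1-N replicate 2. In the members 5 nuclei held 23.9% of the Elmo1 UMIs. The log2 fold change was 0.70 ± 0.11 (edgeR adjusted p = 0.000199) with all clusters and 0.89 (adjusted p = 4.41e-05) without the mixed-marker clusters.

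The receptor and adhesion genes Megf11, Ramp1, Itgav and Sema5a rose as well, as did Adamts18, a secreted protease. Megf11, a receptor involved in the spacing of neurons in the retina, had 60.8, 37.1, 48.0 and 55.3 CPM in the members and 29.3, 30.7, 24.2 and 30.7 CPM in the matched nuclei, so that every member value lay above every matched value (0.80 ± 0.13, edgeR adjusted p = 0.000238). Adamts18 likewise did not overlap, at 64.1 to 100.4 against 42.6 to 52.4 CPM (0.70 ± 0.10, adjusted p = 4.7e-05). Both stayed called with cluster matching, at 0.60 (adjusted p = 0.00572) and 0.60 (adjusted p = 6.86e-05). Ramp1, a partner of the calcitonin receptor-like receptor, and Itgav, integrin alpha V, had estimates of 0.78 ± 0.16 and 0.71 ± 0.17 and were not called with cluster matching (adjusted p = 0.0878 and 0.197).

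Otof (0.77 ± 0.13), Arhgap6 (0.76 ± 0.11) and Plce1 (0.74 ± 0.13) were rises that shrank within clusters, to 0.27 (adjusted p = 0.545), 0.37 (adjusted p = 0.0527) and 0.25 (adjusted p = 0.581). Otof encodes otoferlin, a calcium sensor of vesicle release, and its 4 member values (36.6 to 65.0 CPM) lay above all matched values (19.7 to 36.3 CPM). Meis2, a homeobox gene that also belongs to the striatal and intercalated markers, rose by 0.76 ± 0.11 (adjusted p = 1.94e-05). Its estimate without the mixed-marker clusters was 0.39 (adjusted p = 0.257). Airn, the long RNA antisense to Igf2r at the imprinted locus, and Cenpf, a centromere protein gene, had 0.66 ± 0.13 and 0.68 ± 0.16, and use of strand in the counting is not stated, so Airn cannot be told apart from Igf2r reads. In the members 5 nuclei held 31.8% of the Airn UMIs and 45.8% of the Cenpf UMIs, and Airn was not called without the mixed-marker clusters (adjusted p = 0.151), nor Cenpf with cluster matching (adjusted p = 0.348).

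**Figure D3:**
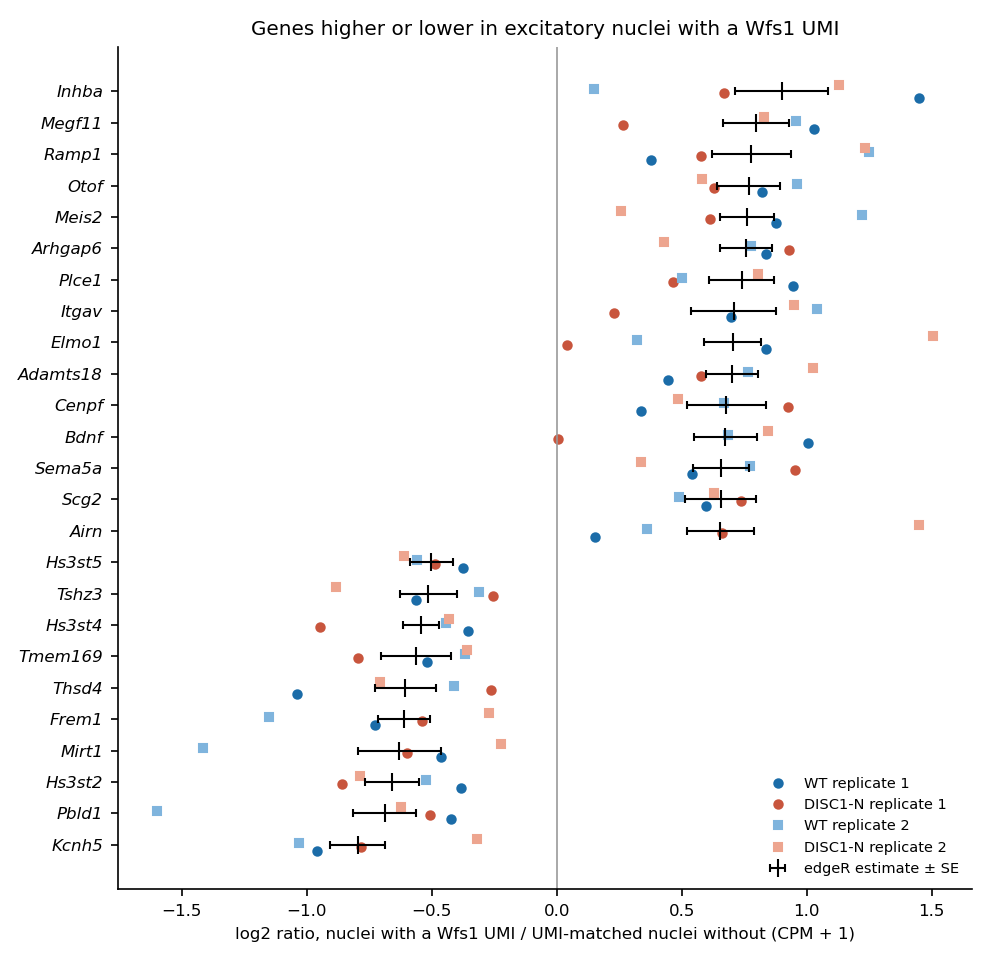
Log2 ratio of CPM (with 1 CPM added) between nuclei with a Wfs1 UMI and UMI-matched nuclei without, 1 point per library, for the 15 largest rises and 10 largest falls; black bars give the edgeR estimate ± SE. Every point lies on the side of the estimate, with Bdnf in DISC1-N replicate 1 and Elmo1 in the same library nearest to 0.

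Some called genes outside the naming rule, chosen after their values were seen, are also given. Gm32647, a long non-coding RNA gene model at chromosome 7, 94042691 to 94709171 (mm10), had 321, 296, 450.2 and 447 CPM in the members and 171, 147, 251 and 222 CPM in the matched nuclei. No matched value reached a member value, the log2 fold change was 0.95 ± 0.05 (edgeR adjusted p = 5.19e-14), and 0.48 with cluster matching (adjusted p = 1.11e-08). Nnat rose from 124 to 150.1 CPM in matched nuclei to 183 to 249 CPM in the members (0.64 ± 0.07, adjusted p = 4.85e-07; cluster-matched 0.38). Sorcs3, a sorting receptor of the sortilin family found at synapses, rose by 0.44 ± 0.06 (adjusted p = 1.51e-05) and by 0.49 with cluster matching (adjusted p = 1.11e-08).

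Mamdc2 was scarce, at 11.1 to 19.9 CPM in the members and 3.61 to 4.54 CPM in the matched nuclei, and its groups did not overlap (1.85 ± 0.28, edgeR adjusted p = 7.21e-05). Mir670hg (0.53 ± 0.10), the semaphorin and VEGF co-receptors Nrp1 (0.56 ± 0.11) and Nrp2 (0.45 ± 0.10), the neuronal pentraxin receptor Nptxr (0.44), Olfm1 (0.28), Lingo1 (0.24) and the proton pump subunit Atp6v0c (0.27) were also called both with UMI matching and with cluster matching. Of these genes Lingo1 lost its call without the mixed-marker clusters (adjusted p = 0.0714).

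The falls were led by Kcnh5, a voltage-gated potassium channel gene and a leading gene of cluster 7. Its level was 51.2, 42.8, 35.7 and 46.0 CPM in the members and 100.4, 74.3, 73.9 and 57.7 CPM in their matched nuclei. All member values lay below all matched values. The log2 fold change was -0.80 ± 0.11 (edgeR adjusted p = 1.64e-05) and -0.48 with cluster matching (adjusted p = 0.0144).

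Of the 10 named falls, 3 were heparan sulphate 3-O-sulphotransferase genes, whose enzymes modify cell-surface heparan sulphate chains. The naming rule took falls alone, so their shared direction is given as a description. Hs3st4 had 153 to 241 CPM in the members and 223 to 329 CPM in the matched nuclei, lower within each library with overlapping ranges (-0.54 ± 0.07, edgeR adjusted p = 9.1e-06). Hs3st2 (-0.66 ± 0.11) had 42.7 to 49.2 against 56.0 to 83.5 CPM and Hs3st5 (-0.50 ± 0.09) 62.7 to 83.6 against 88.3 to 124 CPM, both without overlap. With cluster matching Hs3st4 kept a call (-0.31, adjusted p = 0.00561) while Hs3st2 (adjusted p = 0.378) and Hs3st5 (adjusted p = 0.318) did not. The extracellular matrix genes Frem1 (-0.61 ± 0.10) and Thsd4 (-0.61 ± 0.12), the zinc finger gene Tshz3 (-0.51 ± 0.11), Tmem169 (-0.56 ± 0.14), the long RNA Mirt1 (-0.63 ± 0.17) and Pbld1 (-0.69 ± 0.13) completed the falls. Thsd4 and Pbld1 stayed called with cluster matching (adjusted p = 0.0194 and 0.00441), and Frem1, Tshz3, Tmem169 and Mirt1 did not. Pbld1 (adjusted p = 0.0745), Tshz3 (0.0614), Tmem169 (0.0764) and Mirt1 (0.238) were not called without the mixed-marker clusters.

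Of 22 tested marker genes of BLA excitatory types, 4 rose (Otof, Sema5a, Cdh13 and Lypd1) and 2 fell (Etv1 and Rorb), beside 1.18% and 1.04% of all genes, a list chosen with earlier results of these data known. With cluster matching Sema5a, Etv1 and Rorb were called, and Otof, Cdh13 (adjusted p = 0.274) and Lypd1 (adjusted p = 0.119) were not. Etv1, a transcription factor gene, had 267 to 338 CPM in the members and 325 to 529.8 CPM in the matched nuclei and was lower within each library (-0.43 ± 0.06, edgeR adjusted p = 1.11e-05). Rorb, a nuclear receptor gene, fell most in the replicate 1 libraries, at 64.4 against 133 CPM in WT and 46.3 against 108.5 CPM in DISC1-N. In the replicate 2 libraries the values were 97.2 against 91.2 CPM in WT, with the members higher, and 80.0 against 84.6 CPM in DISC1-N (-0.63 ± 0.13 over all, adjusted p = 0.00269). In WT replicate 2, 1 nucleus held 31 of the members' 79 Rorb UMIs. Without the nucleus of most UMIs in each library the members were lower in both replicate 2 libraries. The values were then 59.6 against 82.3 CPM in WT and 64.9 against 78.5 CPM in DISC1-N. Whether the difference depends on the replicate number was not tested.

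The other markers of this kind missed the threshold. Their estimates were -0.52 ± 0.16 for Adamts2, -0.24 ± 0.08 for Rspo2, 0.62 ± 0.19 for Glis3, 0.47 ± 0.16 for Col12a1, 0.35 ± 0.16 for Plpp3, 0.08 ± 0.10 for Cux2, 0.09 ± 0.14 for Col5a2, -0.15 ± 0.22 for Htr7 and -0.30 ± 0.18 for Col26a1. Among 19 markers of neighbouring cortex, claustrum and hippocampus, Synpr rose (0.43 ± 0.09, with cluster matching adjusted p = 0.406) and Hs3st4 fell, beside 1.18% and 1.04% of all genes. Mpped1 stood at -0.48 ± 0.15 (adjusted p = 0.0909).

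Adhesion and guidance genes, which shape how neurons wire, held the most calls of any list. Of 65 tested, 12 rose and 15 fell, against 1.18% and 1.04% of all genes, and the list's median log2 fold change was 0.0059, with calls in both directions. Cdh9, a classical cadherin, had 741.5, 743, 603 and 617 CPM in the members and 861.5, 847, 884 and 902 CPM in the matched nuclei without overlap (-0.36 ± 0.05, edgeR adjusted p = 1.94e-05). Slit2, the secreted ligand of Robo receptors, fell by 0.37 on the log2 scale (SE 0.05, adjusted p = 9.1e-06), its receptor gene Robo2 by 0.25 (SE 0.04), the ephrin receptor Epha7 by 0.32 (SE 0.05) and the semaphorin Sema3e by 0.35 (SE 0.09).

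Among the rises of the same list were Cdh13 (0.37 ± 0.06), Sema5a (0.66 ± 0.11), Cdh4 (0.25 ± 0.07), Cntn5 (0.19 ± 0.04), Epha6 (0.20 ± 0.04), Tenm3 (0.32 ± 0.07) and the presynaptic organiser Nrxn3 (0.17 ± 0.03). Pcdh8, a protocadherin induced by activity, was scarce (11.7 CPM in the members and 5.25 in the matched nuclei as means of 4 libraries) and rose by 1.07 ± 0.28 (adjusted p = 0.0314). With cluster matching the list kept 5 calls: Nrxn3, Pcdh8 and Sema5a higher, Cdh9 and Ntng1 lower. Sema3e then stood at 0.0040 (adjusted p = 0.998). Without the mixed-marker clusters the list held 8 higher and 9 lower calls, and Tenm3 (adjusted p = 0.247), Pcdh8 (0.0764) and Sema3e (0.0836) were not among them.

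Each list of receptors or channels held 1 to 5 calls, to be read beside the 2.22% of all genes called. Of 18 AMPA, kainate and metabotropic glutamate receptor genes, Grm8 and Grm3 fell and none rose. Grm8, a presynaptic receptor of group III, had 723 to 1025 CPM in the members and 875 to 1391 CPM in the matched nuclei, lower within each library (-0.32 ± 0.04, edgeR adjusted p = 8.02e-06). Grm3 had -0.40 ± 0.06 (adjusted p = 0.000194) and Grm7 -0.10 ± 0.03 (adjusted p = 0.143). With cluster matching Grm3 kept its call at -0.25 (adjusted p = 0.0264) and Grm8 did not (adjusted p = 0.111).

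Of 22 NMDA receptor and postsynaptic density genes, Dlg2 (PSD-93) rose by 0.15 ± 0.03 and Grin3a fell, at -0.35 ± 0.09. Neither was called with cluster matching (adjusted p = 0.185 and 0.0871) or without the mixed-marker clusters (adjusted p = 0.112 and 0.187). The main NMDA receptor subunits did not pass the test, at 0.03 ± 0.05 for Grin1, 0.06 ± 0.04 for Grin2a and 0.06 ± 0.03 for Grin2b. Of 14 GABA receptor genes, Gabrb2 rose (0.25 ± 0.06) and Gabrg3 fell (-0.23 ± 0.04), while Gabbr1 stood at 0.31 ± 0.09 (adjusted p = 0.0519). With cluster matching no GABA receptor gene was called (Gabrb2 adjusted p = 0.288, Gabrg3 adjusted p = 0.318). Gabbr1 was called once the mixed-marker clusters were left out (0.38, adjusted p = 0.0324).

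Among 33 potassium and HCN channel genes the sodium-activated channel gene Kcnt1 (0.45 ± 0.11) and Kcnd3 (0.24 ± 0.06) rose, and Kcnt2 (-0.34 ± 0.05), Kcnq3 (-0.17 ± 0.04) and Kcnh5 fell. Kcnt2 had 295 to 368 CPM in the members and 356 to 461 CPM in the matched nuclei and was lower within each library. With cluster matching Kcnd3, Kcnt2 and Kcnh5 kept their calls and Kcnt1 (adjusted p = 0.0746) and Kcnq3 (adjusted p = 0.504) did not, and Kcnq3 also missed the threshold without the mixed-marker clusters (adjusted p = 0.0516). Of 26 sodium and calcium channel genes the accessory subunit Cacna2d3 rose (0.25 ± 0.05), with Cacna1e at 0.17 ± 0.05 and Cacna1g at -0.29 ± 0.11 not called. Cacna2d3 missed the threshold with cluster matching (adjusted p = 0.0731) and without the mixed-marker clusters (adjusted p = 0.113). Htr1f, a serotonin receptor gene coupled to inhibitory G proteins, was the sole call among 22 neuropeptide and monoamine receptor genes (-0.32 ± 0.05, adjusted p = 6.11e-05), and Cckbr (0.44 ± 0.14) and Chrm2 (0.28 ± 0.09) were not called. Htr1f lost its call with cluster matching (adjusted p = 0.0591). Chrm2 was called without the mixed-marker clusters (0.34, adjusted p = 0.0448) and with cluster matching added to that (adjusted p = 0.0119). Of 33 vesicle and release genes Otof, Syn3 (0.23 ± 0.06), Cplx2 (0.52 ± 0.14) and the scarce Sv2c (1.08 ± 0.22, 11.1 to 21.7 against 5.96 to 10.0 CPM) rose and none fell, beside 1.18% and 1.04% of all genes. Of these Sv2c alone was called with cluster matching (adjusted p = 0.0493), and Cplx2 was not called without the mixed-marker clusters (adjusted p = 0.258).

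None of the 23 genes tested of the unfolded protein response and ER chaperones was called, of which 15 had estimates above 0 and the median was 0.04. Hspa5, the ER chaperone BiP, had 78.2, 77.7, 61.5 and 35.8 CPM in the members and 71.9, 62.8, 45.6 and 27.8 CPM in the matched nuclei. The members were higher in 4 of 4 libraries, with libraries differing more than the kinds of nuclei (0.27 ± 0.10, edgeR adjusted p = 0.240). Atf6, a sensor of the unfolded protein response, and Hsp90b1 stood at 0.19 ± 0.08 and 0.17 ± 0.08. Atf6 was the 1 call of the list without the mixed-marker clusters (0.34, adjusted p = 0.0322), and with cluster matching added it was not called (adjusted p = 0.259). Missing the threshold does not show that these genes were level.

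Of 17 ER calcium and Wolfram-related genes Ryr2, the ryanodine receptor that releases calcium from the ER, rose by 0.17 ± 0.04 (edgeR adjusted p = 0.00784). It was the only call of the list, beside 2.22% of all genes called. Its level was 936 to 1180 CPM in the members and 874 to 1016 CPM in the matched nuclei, higher within each library, and it was not called with cluster matching (adjusted p = 0.411) or without the mixed-marker clusters (adjusted p = 0.066). Cisd2, the gene of the second form of Wolfram syndrome, stood at 0.11 ± 0.10, Itpr1 at -0.12 ± 0.07 and Atp1b1 at 0.21 ± 0.07. None of these 3 was called.

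Of 28 genes of Disc1 and its partners, the adaptor Grb2 rose (0.37 ± 0.10, adjusted p = 0.0346), the phosphodiesterase Pde4b fell (-0.18 ± 0.05, adjusted p = 0.0181) and Kalrn stood at -0.08 ± 0.04. The calls of Grb2 and Pde4b are to be read beside the 2.22% of all genes called. With cluster matching neither call held (Grb2 adjusted p = 0.199, Pde4b -0.03 with adjusted p = 0.923). Disc1 was scarce, with 55 UMIs in the 470 members, and stood at -0.19 ± 0.22. Heat shock chaperones gave no call among 13 tested (Hspa4l -0.24 ± 0.12, Hspe1 0.25 ± 0.16, Hspa8 0.12 ± 0.08).

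Mitochondrially encoded transcripts, cytosolic ribosomal protein genes and nuclear-encoded respiratory chain genes leaned towards the members without a call. Estimates were above 0 for 12 of 12, 68 of 81 and 52 of 73 genes, with medians of 0.27, 0.11 and 0.07, beside 6058 of all 11792 genes tested. mt-Nd2 stood at 0.42 ± 0.13 (adjusted p = 0.105), mt-Nd4 at 0.28 ± 0.09 and mt-Co3 at 0.25 ± 0.08. Rps24, Rpl35 and Rpl14 had 0.25 ± 0.09, 0.44 ± 0.16 and 0.35 ± 0.14, and Ndufa4, Cox7a2 and Cox6c 0.27 ± 0.09, 0.25 ± 0.10 and 0.24 ± 0.10. With cluster matching mt-Co3 (0.39, adjusted p = 0.00561) and mt-Nd4 (0.39, adjusted p = 0.0264) were called. Without the mixed-marker clusters mt-Atp6, mt-Nd2 (0.72, adjusted p = 0.0186), Ndufa4 (0.44, adjusted p = 0.0122) and Rps24 (0.38, adjusted p = 0.048) were called. Transcripts of these 3 groups are made or kept mostly outside the nucleus, and whether residual cytoplasm differed between the nuclei was not tested.

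Between genotypes no gene was called in the members. Of 10685 genes tested, 0 passed (0%), 102 had an unadjusted p under 0.05, and DESeq2 and limma-voom also called 0. The naming rule left out mitochondrial genes, ribosomal protein genes and gene models named Gm or Rik. The rest were kept at a mean of at least 20 CPM with the same sign in both replicate numbers. Of these, the 3 of lowest p on each side are given as values. They were Cenpf (14.4 and 22.1 CPM in WT replicates 1 and 2, 47.0 and 30.6 CPM in DISC1-N), Airn (44.5 and 54.1 against 94.8 and 72.4 CPM) and Caskin1 (22.3 and 9.84 against 38.5 and 32.3 CPM) on the higher side. For Airn, 1 nucleus held 54 of 133 UMIs in DISC1-N replicate 1 and 1 held 40 of 85 in DISC1-N replicate 2. Without the nucleus of most UMIs in each library Airn had 42.7 and 50.4 CPM in WT and 56.9 and 38.8 CPM in DISC1-N. Its direction then turned in replicate 2. Nxph1 (77.6 and 77.5 against 44.2 and 30.6 CPM), Pde7b (53.6 and 43.1 against 24.2 and 31.5 CPM) and Plpp3 (40.9 and 51.7 against 30.6 and 21.3 CPM) were on the lower side. On simulated counts this fit recovered 0% of 2-fold changes, so it could not have shown differences of that size.

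The replicate 1 files were made with Cell Ranger 7.0.0 and the replicate 2 files with 6.0.2, per the file headers, so the genotypes were also compared within the replicate number. With the number as a block, 19 of 10685 genes were called (0.178%), 7 higher (0.0655%) and 12 lower (0.112%) in DISC1-N. This fit rests on 1 residual degree of freedom, and on simulated counts it recovered 80% of 2-fold and 43% of 1.5-fold changes with 6 false calls. The simulation gave all genes the same spread, below the common coefficient of variation of 0.074 that edgeR estimated for this fit. It also held no UMIs gathered in single nuclei, so these numbers may be too favourable.

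Mitochondrially encoded genes made up 8 of the 12 falls, out of 11 tested. mt-Atp6, a subunit of the ATP synthase, went from 279 CPM in WT to 155 CPM in DISC1-N in replicate 1 and from 91.0 to 30.6 CPM in replicate 2. mt-Co1, a subunit of cytochrome c oxidase, went from 195 to 117 and from 129 to 42.6 CPM. DISC1-N was lower within both replicate numbers, while WT replicate 2 lay below DISC1-N replicate 1 for mt-Atp6. The log2 fold changes with the block were -1.01 ± 0.16 for both (edgeR adjusted p = 4.01e-07 and 4.86e-07). The list's median was -1.01 against 0.0040 for all genes tested.

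The matched nuclei showed a fall as well. In the matched nuclei 56 of 13550 genes were called (0.413%), and 8 of 12 mitochondrial genes were lower in DISC1-N with the block, mt-Atp6 at -1.11 and mt-Co1 at -0.69, and the test of the difference between the 2 kinds of nuclei called no mitochondrial gene (mt-Atp6 0.10 ± 0.17, mt-Co1 -0.32 ± 0.19). Without the mixed-marker clusters 12 genes were called in the members (0.126%), and the estimates were -1.40 and -1.51 (adjusted p = 0.000232 and 0.000163), while mt-Nd4l lost its call (adjusted p = 0.378). The median mitochondrial share of the members' UMIs was 0.113% and 0.0588% in WT and DISC1-N of replicate 1 and 0.0150% and 0.0234% in those of replicate 2, so medians over nuclei did not follow the sums in replicate 2. In WT replicate 2, 1 nucleus held 27 of the members' 74 mt-Atp6 UMIs, and without the nucleus of most UMIs in each library the levels were 247 and 140 CPM in replicate 1 and 58.4 and 28.2 CPM in replicate 2. Members with an mt-Atp6 UMI ran the other way in replicate 2, at 19 of 83 in WT and 31 of 109 in DISC1-N, while in replicate 1 they were 143 of 159 and 87 of 119. For mt-Cytb, 1 nucleus held 39 of the 100 UMIs of WT replicate 2.

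**Figure D4:**
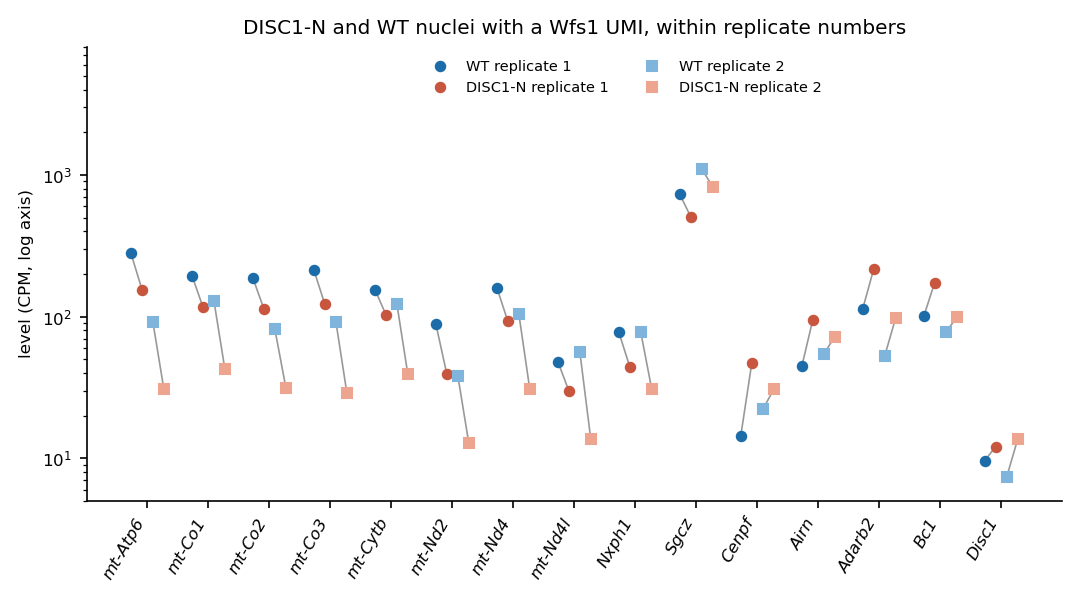
Level in CPM (log axis) of genes in the nuclei with a Wfs1 UMI, 1 point per library. Shown are mitochondrial genes, Nxph1, Sgcz, Cenpf, Airn, Adarb2 and Bc1, all called within replicate numbers, and Disc1, which was not called. Other calls, among them AC149090.1, are not shown. Grey lines join WT and DISC1-N of the same replicate number. Lines of the 8 mitochondrial genes, Nxph1 and Sgcz slope down and those of Cenpf, Airn, Adarb2, Bc1 and Disc1 slope up.

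Of the other genes called with the block, Sgcz, which encodes a sarcoglycan of the cell membrane, went from 728 to 506 CPM and from 1101 to 825 CPM. It was called with all clusters (-0.45 ± 0.10, edgeR adjusted p = 0.0084) and without the mixed-marker clusters (-0.63, adjusted p = 0.00176). The matched nuclei had -0.16 (adjusted p = 0.728), and the difference between the 2 kinds of nuclei, -0.27 ± 0.16, was not called.

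Of the calls of the block outside the mitochondrial genes, the following were not called once the mixed-marker clusters were left out. Nxph1, a neurexin ligand of interneurons and a leading gene of cluster 9, had -1.01 ± 0.21 (adjusted p = 0.00124) and then -0.19 (adjusted p = 0.997). Adarb2, an interneuron gene that also leads cluster 9, went from 114 to 217 CPM and from 52.9 to 97.9 CPM (0.93 ± 0.16, adjusted p = 5.89e-06), and 5 nuclei held 46.5% of its UMIs. It then stood at 0.75 (adjusted p = 0.976). In the matched nuclei with the block neither gene was called, Nxph1 at -0.31 (edgeR adjusted p = 0.446) and Adarb2, of the other sign, at -0.23 (adjusted p = 0.679). Cenpf (1.22 ± 0.28, then 1.11 with adjusted p = 0.917), Airn (0.83 ± 0.20, then 0.56 with adjusted p = 0.997) and the dendritic RNA Bc1 (0.65 ± 0.16, then 0.60 with adjusted p = 0.822) did the same. In the matched nuclei with the block Cenpf was called, at 0.95 (edgeR adjusted p = 0.0165). Without the mixed-marker clusters it stood there at 1.29 (adjusted p = 0.00017). Airn (0.12) and Bc1 (0.23) were not called in the matched nuclei. For Airn the rise in replicate 2 rested on 1 nucleus, as given above. AC149090.1, a gene model on an unplaced scaffold, had -0.58 ± 0.11 (adjusted p = 0.00013) and then -0.51 (adjusted p = 0.997). In the matched nuclei it was called, at -0.59 (edgeR adjusted p = 0.0117) and, without the mixed-marker clusters, at -0.62 (adjusted p = 1.75e-14). Its level in the members was 621 and 616 CPM in replicate 1 and 807 and 334 CPM in replicate 2, so that the difference lay in replicate 2. The other 4 calls were Gli3 and the gene models Gm48530, Gm26787 and Gm47283, which the naming rule left out and which are named after their values were seen.

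Disc1 itself was at 9.63 and 7.38 CPM in the members of WT replicates 1 and 2 and at 12.1 and 13.6 CPM in those of DISC1-N, higher in both DISC1-N libraries and not called (0.55 ± 0.45 with the block, adjusted p = 0.999). The labels do not say which part of the gene the allele holds, so its level checks neither label. The NMDA receptor subunits stood at -0.06 ± 0.12 for Grin1, 0.07 ± 0.10 for Grin2a and -0.01 ± 0.09 for Grin2b with the block, and Hspa5 at -0.26 ± 0.20, all with an adjusted p of 0.999. No cluster differed in its share of members between genotypes (edgeR adjusted p of at least 0.642 over the 15 clusters, and 0.858 with the block).

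Of 12538 genes, 2 (0.016%) had a genotype difference that differed between members and matched nuclei. Pla2g6, a phospholipase gene, stood at 37.9 and 87.3 CPM in the members of WT replicates 1 and 2 and at 28.5 and 39.2 CPM in those of DISC1-N. In the matched nuclei it had 27.1 and 85.0 CPM in WT and 71.6 and 89.8 CPM in DISC1-N, so that it was lower in DISC1-N members and higher in DISC1-N matched nuclei within both replicate numbers. In the matched nuclei of replicate 2 that direction rested on 1 nucleus of DISC1-N, which held 106 of 316 UMIs. Without the nucleus of most UMIs in each library the matched nuclei had 68.3 CPM in WT and 60.0 CPM in DISC1-N of replicate 2, against 24.5 and 61.8 CPM in replicate 1. The members, treated alike, had 28.7 and 23.0 CPM in replicate 1 and 54.6 and 19.1 CPM in replicate 2. The interaction was -1.50 ± 0.23 (edgeR adjusted p = 0.00243). It was also called with cluster matching (-1.43, adjusted p = 0.0402) and with the mixed-marker clusters left out (-1.49, adjusted p = 0.0352). The Pla2g6 UMIs of the members lay in 71 nuclei, 5 of which held 45.9% of them. The other gene was 9630013A20Rik, whose UMIs lay in 13 members and 33 matched nuclei. At an unadjusted p under 0.05 there were 509 genes, and limma-voom called 3.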

How the data were processed

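Deposited were UMI count matrices of 4 single-nucleus libraries, made by the authors with Cell Ranger, version 7.0.0 for the replicate 1 files and 6.0.2 for the replicate 2 files per the file headers, while the submitters' processing notes name 7.0.0 and the build mm10. Whether intronic reads or strand were used in counting is not given in the sources used here. From these counts the members and lists were chosen with earlier results of these data known. Comparison nuclei were matched within a library to the nearest UMI count, 3 per member. Nuclei were clustered without the 5 rule genes (scanpy 1.11.5, 2000 variable genes, 30 principal components, 15 neighbours, Leiden resolution 0.5). Doublets were not removed, except in an alternative with Scrublet.

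UMIs were summed per library and kind of nuclei, filtered with edgeR's filterByExpr (minimum count 10), scaled by TMM and tested with edgeR 4.0.16 (quasi-likelihood test, Benjamini-Hochberg adjusted p under 0.05). Members and matched nuclei were compared with the library as a term (8 sums), genotypes with 2 libraries against 2, without a block and then within the replicate number. DESeq2 1.42.0 and limma 3.58.1 were alternatives. On simulated data with 200 changed genes the member comparison recovered 82% of 1.5-fold and 100% of 2-fold changes with 6 false calls among 11801 genes. The simulated counts gave all genes the same spread and held no UMIs gathered in single nuclei. The smallest sum held 812996 UMIs, which limits precision for scarce genes.

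Named were the 15 largest rises and 10 largest falls among called genes with a mean of at least 20 CPM and the same sign in 4 libraries. Gene models named Gm or Rik, mitochondrial and ribosomal protein genes, Y-chromosome genes, Xist, Tsix and the rule genes were left out. Genotype comparisons allowed 8 rises and 8 falls, or 3 and 3 of lowest p as values where none was called. A fixed set (Disc1, the amygdala types' leading markers, Grin1, Grin2a, Grin2b, Hspa5 and Cisd2) and the 3 genes of lowest p in each list were also named. Coordinates are from the GENCODE annotation of mm10, which matched 32235 of 32285 genes. Alternatives changed 1 choice at a time: the scaling, the filter, the matching, the rule's limits, depth thinning to 4000 UMIs, doublets and single libraries. The mixed-marker clusters were also left out together with cluster matching or with the replicate block.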

Additional observations from a re-analysis of the deposited data

Results flagged for a closer look

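The genotype difference of 2 genes differed between members and matched nuclei by a test of the interaction. For Pla2g6 the interaction was -1.50 on the log2 scale (edgeR adjusted p = 0.00243), and within replicate numbers the genotype estimate was -0.79 in the members and 0.72 in the matched nuclei. Of the 220 Pla2g6 UMIs of the members 5 nuclei held 45.9%, and of the 959 UMIs of the matched nuclei 1 nucleus of DISC1-N replicate 2 held 106.

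For 9630013A20Rik, an RNA antisense to Pcdh17 at chromosome 14, 84458639 to 84476424 (mm10), the interaction was 3.99 (edgeR adjusted p = 0.0115). Its levels were 1.81 and 23.4 CPM in WT members, 15.7 and 4.26 CPM in DISC1-N members, 20.7 and 35.7 CPM in WT matched nuclei and 1.19 and 2.56 CPM in DISC1-N matched nuclei. The 49 UMIs of the members lay in 13 nuclei, 5 of which held 83.7%, and 1 matched nucleus held 82 of 204 UMIs. The call was lost with limma-voom (adjusted p = 0.0689), with 1 comparison nucleus per member (adjusted p = 1.00), with cluster matching (adjusted p = 1.00) and without DISC1-N replicate 1 (adjusted p = 0.877).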

How the results depend on the processing

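The count of genes that differed between members and matched nuclei (262, of which 139 higher and 123 lower) depended most on the library term and the choice of nuclei. It was 108 with DESeq2 (42 higher, 66 lower), 170 with 1 comparison nucleus per member (92 and 78), 77 with cluster matching (49 and 28), 46 with cluster matching and no mixed-marker clusters (33 and 13), 138 with at least 2 Wfs1 UMIs (64 and 74), 34 with at least 3 Slc17a7 UMIs (13 and 21) and 108 in replicate number 1 alone (51 and 57). It was 0 without the library term (0 higher, 0 lower), and without a filter 222 genes were lower. Leaving out 1 library gave 139 to 229 calls (72 to 131 higher, 67 to 98 lower). Clusters called were 1 with 1 comparison nucleus per member, 5 with no UMI matching and 1 to 3 with 1 library left out. At Leiden resolution 1 only shares were computed.

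Genotype counts moved with the replicate block. It gave 19 calls in the members and 56 in the matched nuclei, against 0 in each without it, and 12 and 66 without the mixed-marker clusters. The labels do not say what the number stands for, and the 2 pairs allow no check beyond this. Member sums of the same number differed by a chi-square per degree of freedom of 1.70 and 1.58, those of other pairs by 4.13 to 6.27, and the file headers tie the number to the Cell Ranger version. Without a filter 1 gene was called in the members. Leaving out 1 library, which leaves a lone library assumed to vary like the others, gave 0 to 18 calls in the members and 3 to 24 in the matched nuclei. The interaction had 6 calls with thinned counts and 4 to 18 with 1 library left out.

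Of the named genes and clusters, 2089 of the recomputed values kept direction and call, 428 lost the call, 75 gained it and 33 turned direction, with leave-one-library-out values apart. The turns, whose cause was not tested, were on the log2 scale between members and matched nuclei as follows. Up to 15000 UMIs Col5a2 was -0.076, with no Gad1, Gad2 or Foxp2 UMI Penk was -0.017, and with 3 Slc17a7 UMIs Chrm2 was -0.13 and Col5a2 -0.14. With 2 Wfs1 UMIs Cisd2 was -0.10, Cox7a2 -0.048, Grin2a -0.00011, Homer1 0.0035 and Kalrn 0.047. Sema3e was 0.0040 with cluster matching and 0.14 with no mixed-marker clusters as well, where Col26a1 was 0.18 and Disc1 0.069. Without the mixed-marker clusters alone Disc1 was 0.056 and Htr7 0.082. Without a filter Grin1 was -0.0045. In replicate number 1 alone Rspo2 was 0.0064, and in number 2 alone Col26a1 was 0.11, Grin1 -0.020, Hspe1 -0.0068 and Htr7 0.25. With thinned counts Col26a1 was 0.19 and Htr7 0.061. With 1 library left out Htr7 ran from -0.45 to 0.061 and Grin1 from -0.0036 to 0.043.

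Between genotypes Grin1 turned to 0.0039 up to 15000 UMIs, 0.049 with no Gad1, Gad2 or Foxp2 UMI and 0.036 with thinned counts. Grin2a turned to -0.0022 up to 15000 UMIs. Grin2b turned to 0.0014 with no Gad1, Gad2 or Foxp2 UMI, 0.020 with 3 Slc17a7 UMIs, 0.015 with 2 Wfs1 UMIs, 0.0072 without a filter and 0.0012 under 1% mitochondrial UMIs. Airn was -0.031 with 3 Slc17a7 UMIs. With 1 library left out, Grin1 ran from -0.18 to 0.070, Grin2a from -0.15 to 0.30, Grin2b from -0.098 to 0.071, Hspa5 from -0.91 to 0.091 and mt-Nd1 from -1.58 to 0.29.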
